A study of Mus musculus with 16 samples.

Results

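The subject here is how far the response of the mouse liver to partial hepatectomy (PHx) depended on the genotype of its hepatocytes. In PHx a piece of the organ is cut away and the remnant regrows, and sham surgery, which removes nothing, is the control. For every gene the difference between the genotypes' responses was taken, that is, the PHx change in PparaΔHep livers minus the PHx change in Ppara fl/fl livers. A negative value means a weaker rise or a deeper fall after PHx in PparaΔHep livers, and a positive value the opposite. All 30142 genes that could be named were used, of 30142 in the series, and 19043 of them were protein-coding. Livers were taken at 12 h, and the 4 groups of 4 arrays were sham fl/fl, PHx fl/fl, sham PparaΔHep and PHx PparaΔHep. The fl/fl mice carried a floxed Ppara and were taken as the control genotype, whereas PparaΔHep mice had lost the gene in hepatocytes. Other liver cells still had the gene, and the labels do not name the driver of the deletion or the age of the mice. Whether the 4 arrays of a group are 4 animals is not in the labels, and p-values then measure only the spread between arrays, which may be technical.

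PPARα, the product of Ppara, is switched on by fatty acids and, as a nuclear receptor, binds DNA as a pair with the retinoid X receptor. In hepatocytes it raises genes for the import of carnitine, for oxidation of fat in mitochondria and peroxisomes, for splitting of fatty acyl-CoA and for the coats of lipid droplets. After PHx, fat released from adipose tissue reaches the remnant liver and builds up there as droplets before the hepatocytes divide. Cholesterol synthesis, bile acid synthesis and male-type liver genes are among the functions that a regrowing liver turns down.

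A difference between changes carries the spread of all 4 groups, and the PHx groups varied more. Over the 9294 genes with a mean log2 value of at least 4, the median SD was 0.105 for sham fl/fl and 0.154 for PHx fl/fl livers, and 0.0966 for sham and 0.179 for PHx PparaΔHep livers. Of all variance within groups, 77.1% lay in the PHx arrays. Its first axis, with 41.9%, set arrays 2 and 3 apart from arrays 1 and 4 in PHx fl/fl, and arrays 3 and 4 from arrays 1 and 2 in PHx PparaΔHep livers. The labels do not explain the numbers in the sample titles, and most runs of these numbers hold sham or PHx arrays alone. The split followed the runs of these numbers in PHx PparaΔHep livers and not in PHx fl/fl livers. Cyp8b1, a bile acid enzyme, shows the size of that split, with levels of 7.31, 3.95, 3.62 and 8.34 in PHx fl/fl livers. Antigenomic background probe sets stood at 1.26 ± 0.04 and 1.23 ± 0.02 in sham fl/fl and sham PparaΔHep livers, and at 1.03 ± 0.04 and 1.0 ± 0.03 after PHx in the same order (SD, n = 4). The 72 genes of chromosome Y, most of them repeated copies, had a median PHx change of 2.73 in fl/fl and 2.88 in PparaΔHep livers and a median genotype difference of 0.20. The single-copy Y genes Eif2s3y and Uty did not share that rise, with changes of -0.30 and -0.12 in fl/fl and -0.26 and -0.15 in PparaΔHep livers and genotype differences of 0.04 ± 0.13 and -0.03 ± 0.08. The labels do not say whether sham and PHx arrays were processed together, and the part of these shifts in any PHx change, the shared response included, was not tested.

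No gene passed the test of the genotype difference. Of 30142 genes, 0 reached adjusted p below 0.05 (percent called 0) by limma, and the smallest adjusted p of 0.286 was shared by 31 genes. At unadjusted p below 0.05 there were 3400 genes (11.3%), 2645 with a positive (8.78%) and 755 with a negative difference (2.5%). That surplus of positive differences depended on the scale. It made up 77.8% of these genes as deposited, 53.1% after cyclic loess, 59.4% after quantile normalization and 17.3% with array medians subtracted. The surplus lay among dim genes, since of the 20848 genes with a mean under 4, 10.9% were positive and 1.65% negative at unadjusted p below 0.05. Of the 9294 brighter genes 3.91% were positive and 4.41% negative. The values given for single genes therefore describe them, and a p that misses the threshold does not show that the genotypes responded alike.

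The intervals show what sizes of difference these arrays leave possible. The 95% interval of a gene's difference reached a median of 0.236 to either side on the log2 scale over all genes and 0.307 over the brighter ones, with a 90th percentile of 0.63. For 92.7% of the brighter genes the whole interval lay within 1 of 0, which is a factor of 2 in either direction when written as a fold.

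Most of the response to PHx was shared. In fl/fl livers 9868 genes passed (32.7%) and in PparaΔHep livers 9734 (32.3%), and 6277 passed in both, which is 63.6% of the first and 64.5% of the second list. In fl/fl livers 11.9% of all genes rose and 20.8% fell, and in PparaΔHep livers 14.8% rose and 17.5% fell. Of the 9294 brighter genes 6.89% rose and 36.1% fell in fl/fl livers, and 6.24% rose and 39.8% fell in PparaΔHep livers. Of the shared genes, 6262 moved the same way and 15 in opposite ways. The 155 brighter genes called at least 2-fold higher in fl/fl livers had a median change of 1.60 there and 1.60 in PparaΔHep livers, and 154 of them had the same sign. The 256 called at least 2-fold lower had medians of -1.27 and -1.31. Of the brighter genes called at least 2-fold in PparaΔHep livers, the 142 higher had medians of 1.68 there and 1.56 in fl/fl livers. The 340 lower had -1.28 in PparaΔHep and -1.09 in fl/fl livers. Across the 9294 brighter genes the changes correlated at r = 0.909, a description over genes, which are not independent replicates. A further 3591 genes passed in fl/fl livers alone and 3457 in PparaΔHep livers alone. Among these, 1204 and 880 had an unadjusted p below 0.05 for the genotype difference itself. Both shares lie above the 11.3% of all genes, and selecting genes called in 1 genotype alone favours such a p. Most genes called in 1 genotype alone still had no such p for the difference between genotypes.

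**Figure D1:**
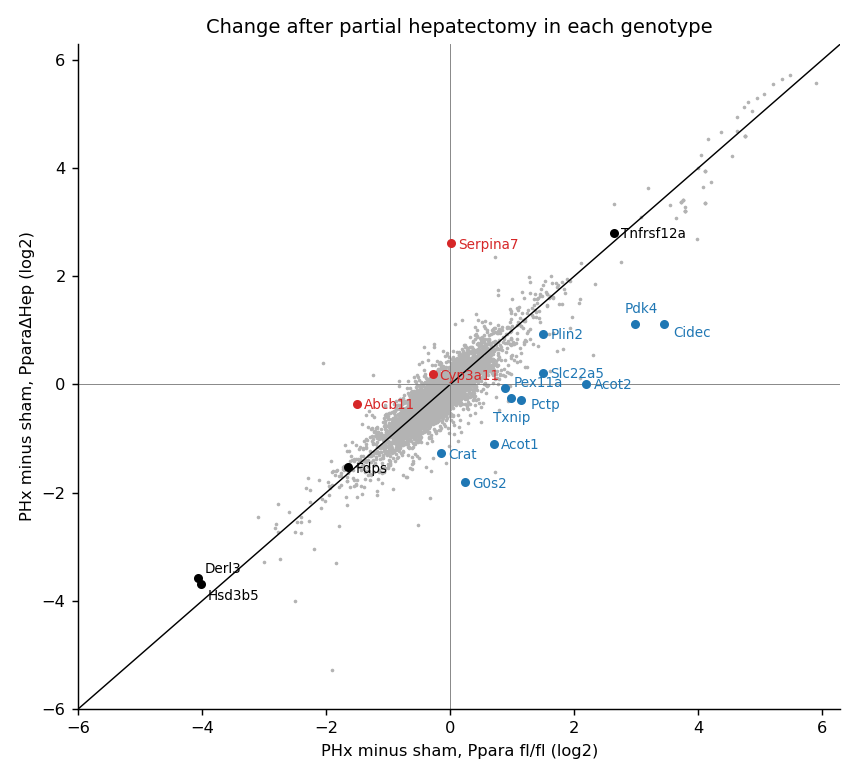
Each grey point is a gene with a mean log2 value of at least 4, placed by its PHx minus sham change in Ppara fl/fl livers (x axis, log2) and in PparaΔHep livers (y axis, log2); the line marks equal changes. Named blue genes have a negative genotype difference (Cidec -2.35, Acot2 -2.19, Slc22a5 -1.27), red genes a positive one (Serpina7 2.59), and black genes (Derl3, Hsd3b5, Tnfrsf12a, Fdps) lie near the line; none passed the adjusted threshold.

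The lists of PPARα target genes and of lipid droplet genes had mostly negative differences. They have 86 measured members, of which 74 had a negative difference, with a median of -0.33 against 0.03 over all genes and -0.03 over the brighter ones. At unadjusted p below 0.05, 23 members were negative (26.7%, against 2.5% of all and 4.41% of the brighter genes) and 2 positive (2.33%, against 8.78% of all genes), while 0 passed after adjustment over all genes. Among the 100 brighter protein-coding genes with the lowest t, 11 were members, and 0 among the 100 with the highest, while members made up 1.05% of the 6840 such genes (72 of them). Because the lists were chosen with earlier results of these data known, these counts describe the lists and are no test of them. The sign held under other scalings, with 72 of 86 negative after cyclic loess (median -0.32) and 77 of 86 with array medians subtracted (median -0.43). Of all brighter genes, 57.4% had a negative difference. Among the members the count was 16 of 17 for mitochondrial oxidation (median -0.33), 14 of 16 for peroxisomal oxidation (-0.43) and 9 of 9 for omega-oxidation, thioesterases and ketone bodies (-0.56). It was 20 of 23 for signalling and other targets (-0.29) and 15 of 21 for the droplet (-0.23). With 1 array left out the droplet median ran from -0.285 to -0.174. The mitochondrial median was -0.207 without PHx fl/fl array 1, the peroxisomal -0.288 without PHx fl/fl array 4 and the signalling median -0.164 without PHx PparaΔHep array 2. The median of the omega-oxidation list, the shortest of these 5, moved furthest. Its median was -1.119, -0.164 and -0.256 without PHx PparaΔHep arrays 4, 2 and 1, and -0.358, -1.071 and -0.324 without PHx fl/fl arrays 1, 3 and 4. It was -0.896 without sham fl/fl array 4 and -0.329 without sham PparaΔHep array 2.

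Other pathway lists ranged from negative to positive medians. The median was -0.05 for cholesterol synthesis, -0.06 for bile acid genes, 0.01 for G1/S and DNA replication, 0.00 for G2/M and mitosis, 0.07 for the unfolded protein response, -0.02 for the acute phase and 0.01 for growth hormone and male-biased genes. Gluconeogenesis, glycogen and glycolysis matched the droplet list, with a median of -0.23 and 16 of 21 negative, and had 1 member negative and 1 positive at unadjusted p below 0.05. More lists leaned negative. These were fatty acid synthesis (13 of 18, median -0.11), the circadian clock (14 of 17, -0.13), oxidative phosphorylation (21 of 26, -0.09) and amino acid and urea metabolism (10 of 15, -0.13), with 3, 0, 2 and 2 members negative at unadjusted p below 0.05. The NRF2 targets, genes of the oxidant defence, had 15 of 16 positive differences and a median of 0.23, with 0 at unadjusted p below 0.05, and with array medians subtracted 11 of 16 were positive. Xenobiotic metabolism had a median of 0.26, with 4 of 19 members positive (21.1%) and 1 negative (5.26%) at unadjusted p below 0.05, against 8.78% and 2.5% of all and 3.91% and 4.41% of the brighter genes.

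**Figure D2:**
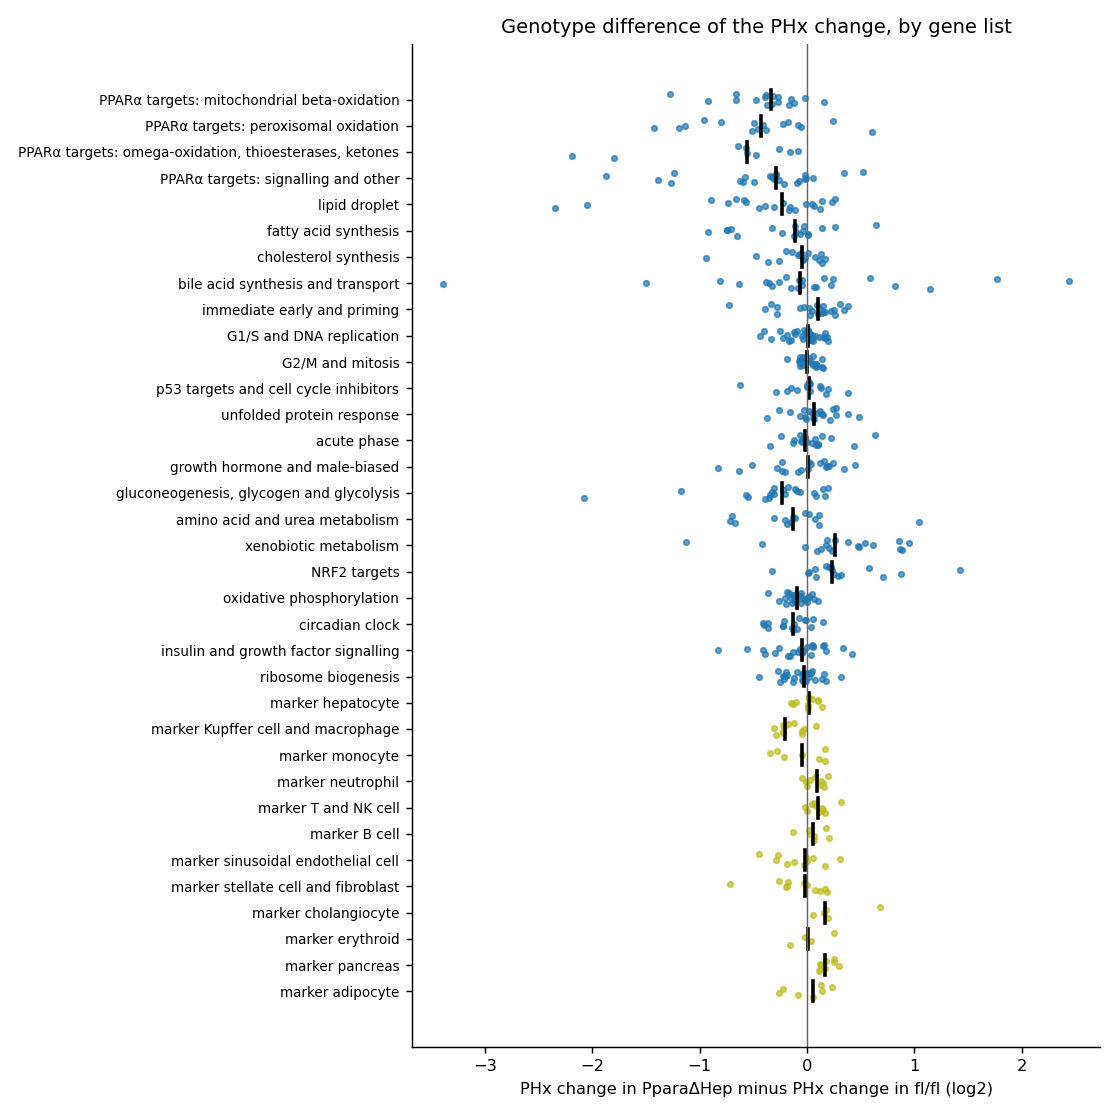
Each point is a gene of the list named at the left, placed by its PHx change in PparaΔHep minus that in fl/fl livers (x axis, log2), with pathway lists in blue, cell type markers in olive and a black bar at each list's median. The PPARα target and droplet lists lie mostly left of 0 (medians from -0.23 to -0.56), and the xenobiotic and NRF2 lists to the right (0.26 and 0.23).

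Promoter sequence was set beside these values for 3 target genes with leading negative differences, Creb3l3, Slc22a5 and Acot1, because PPARα binds repeats of a short core, AGGTCA. The 250 bases before a RefSeq transcription start (GRCm38.p6) are printed 5′ to 3′ on the gene's strand, in lower case, with AGGTCA on either strand in capitals. Creb3l3 lies at chr10:81092592-81092841 (minus strand, the first of its 2 listed starts), Slc22a5 at chr11:53891704-53891953 (minus) and Acot1 at chr12:84009252-84009501 (plus).
Creb3l3: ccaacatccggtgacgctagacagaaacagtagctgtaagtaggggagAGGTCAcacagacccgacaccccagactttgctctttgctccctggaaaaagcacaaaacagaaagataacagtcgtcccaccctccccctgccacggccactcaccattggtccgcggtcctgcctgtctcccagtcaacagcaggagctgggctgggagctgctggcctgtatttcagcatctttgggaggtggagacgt
Slc22a5: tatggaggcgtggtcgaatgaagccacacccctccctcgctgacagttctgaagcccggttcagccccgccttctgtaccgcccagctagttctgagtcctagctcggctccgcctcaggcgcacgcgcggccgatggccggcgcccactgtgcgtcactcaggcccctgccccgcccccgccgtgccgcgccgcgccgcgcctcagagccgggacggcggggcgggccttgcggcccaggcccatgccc
Acot1: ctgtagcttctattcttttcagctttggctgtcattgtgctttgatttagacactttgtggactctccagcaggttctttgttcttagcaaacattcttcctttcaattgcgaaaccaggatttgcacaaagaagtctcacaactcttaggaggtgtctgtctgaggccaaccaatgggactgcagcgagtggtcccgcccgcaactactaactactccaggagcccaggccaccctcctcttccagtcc
The Creb3l3 window has 1 match, starting 202 bases before the start, and the windows of Slc22a5 and Acot1 have none. The other Creb3l3 start, chr10:81098873-81099122, and the 2 starts listed for Cidec have none either. AGGTCA was in 14.0% of all 32851 promoter windows, in 16.5% of 85 windows of 69 target and droplet genes and in 11.1% of 18 windows of 14 of the 15 lowest leaders. A pair of such cores in direct repeat, 1 base apart, on either strand, was in 0.0335% of all windows and in 0 of either set. A match here is a description of these letters and not a bound site.

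Of the 17 measured genes of mitochondrial oxidation, 2 rose and 2 fell in fl/fl livers, and 0 rose and 9 fell in PparaΔHep livers. The rises in fl/fl livers are near the share of all genes (11.9%). Of the brighter genes, to which 16 of the 17 belong, 6.89% rose and 36.1% fell in fl/fl livers. In PparaΔHep livers 6.24% of them rose and 39.8% fell. Slc22a5, which imports carnitine into the cell, had levels of 4.45, 4.79, 4.67 and 4.91 in sham fl/fl, 6.45, 6.13, 5.49 and 6.72 in PHx fl/fl, 4.63, 4.78, 4.77 and 4.64 in sham PparaΔHep and 4.75, 4.77, 5.28 and 4.89 in PHx PparaΔHep livers. All 4 PHx fl/fl arrays lay above every other array. It rose by 1.49 ± 0.20 (SE) in fl/fl livers, the change in PparaΔHep livers was 0.22 ± 0.20, and the difference was -1.27 ± 0.28 (95% interval -1.88 to -0.67; unadjusted p = 4.49e-04, limma adjusted p = 0.301). Without PHx fl/fl array 3 the difference was -1.51 with an adjusted p of 0.0482, the only alternative in which it passed. After sham the genotypes were equal for Slc22a5 (0.00), and after PHx PparaΔHep livers were lower by 1.27 (adjusted p = 0.0183). The mitochondrial list as a whole was already lower in PparaΔHep livers after sham. Its median genotype difference was -0.4 after sham and -0.73 after PHx. Its mean level ran from 7.16 to 7.38 in sham fl/fl and from 6.74 to 6.92 in sham PparaΔHep livers.

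Other members of that route pointed the same way with wider errors. Cpt1a, the gate of fat entry into mitochondria, had a difference of -0.92 ± 0.43, the carnitine shuttle gene Slc25a20 -0.66 ± 0.30 and Decr1, which handles unsaturated chains, -0.66 ± 0.28, and all 3 had an unadjusted p below 0.05 (adjusted p from 0.405 to 0.441). Slc25a20 and Decr1 were also among the 43 genes (0.143%) that differed between genotypes after PHx, all of them lower in PparaΔHep livers, of which 15 belonged to the target and droplet lists. After sham 4 genes differed (0.0133%), 1 of them in these lists. Acsf2, a mitochondrial acyl-CoA synthetase outside the lists, rose by 0.32 ± 0.10 in fl/fl and fell by 0.36 ± 0.10 in PparaΔHep livers, a difference of -0.68 ± 0.14. Its levels were 7.63, 7.55, 7.36 and 7.78 in PHx fl/fl against 6.81, 6.80, 6.73 and 6.99 in PHx PparaΔHep livers, with no overlap, while the sham groups overlapped. Over all genes the arrays of the genotypes did not overlap in 6.8% after sham and 3.73% after PHx.

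Peroxisomal genes had a median of -0.43 and the 13 measured Acot genes one of -0.17, with 9 negative. Here too some genes already differed in level between the sham groups, though not past the threshold. The peroxisomal list had a median genotype difference of -0.35 after sham and -0.82 after PHx. Of 16 measured peroxisomal genes 3 rose and 3 fell in fl/fl livers, and 0 rose and 5 fell in PparaΔHep livers, where 39.8% of the brighter genes fell, so these falls are no more frequent than the background. Pex11a, which helps peroxisomes multiply, rose by 0.88 ± 0.19 in fl/fl livers to 7.03, 6.24, 6.29 and 6.63, and stood at 5.35, 5.44, 6.12 and 5.15 in PHx PparaΔHep livers, below all of these. Its sham levels overlapped between genotypes, and the difference was -0.96 ± 0.27 (adjusted p = 0.327). Crat, a carnitine acetyltransferase, had 5.91, 5.78, 5.84 and 5.99 in sham fl/fl, 6.24, 5.33, 5.16 and 6.22 in PHx fl/fl, 6.13, 6.15, 6.36 and 6.12 in sham PparaΔHep and 5.29, 4.75, 4.98 and 4.65 in PHx PparaΔHep livers. It fell by 1.27 ± 0.21 in PparaΔHep livers from a sham level above that of fl/fl, and the change in fl/fl livers was -0.14 ± 0.21.

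The thioesterases split fatty acyl-CoA into free acid and CoA, Acot1 in the cytosol, Acot2 in mitochondria and Acot3 and Acot4 in peroxisomes. Acot1 had 4.54, 3.96, 4.61 and 5.21 in sham fl/fl, 5.59, 5.22, 4.94 and 5.38 in PHx fl/fl, 5.56, 5.84, 5.83 and 5.57 in sham PparaΔHep and 4.19, 4.11, 5.0 and 5.12 in PHx PparaΔHep livers. It rose by 0.70 ± 0.26 in fl/fl and fell by 1.09 ± 0.26 in PparaΔHep livers, for a difference of -1.80 ± 0.36 (adjusted p = 0.286). All sham PparaΔHep arrays lay above all sham fl/fl arrays, with a genotype difference after sham of 1.12 that did not pass (adjusted p = 0.337). Acot2 had 5.48, 4.91, 5.12 and 5.81 in sham fl/fl, 8.13, 7.29, 7.38 and 7.30 in PHx fl/fl, 6.23, 6.41, 6.20 and 5.78 in sham PparaΔHep and 5.74, 5.13, 7.57 and 6.23 in PHx PparaΔHep livers. The PHx PparaΔHep arrays spread over the widest range, and array 3 reached into that of PHx fl/fl. Acot2 rose by 2.20 ± 0.39 in fl/fl livers against 0.01 ± 0.39, a difference of -2.19 ± 0.55. Acot3 and Acot4 had differences of -1.43 ± 0.52 and -1.19 ± 0.32, again with all sham PparaΔHep arrays above all sham fl/fl arrays. These thioesterases are related genes and may share probe sequence, so their values are not taken as independent.

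The classical target Cyp4a14, a fatty acid hydroxylase, differed in another way. Its levels were 7.23, 6.08, 6.99 and 9.62 in sham fl/fl and 2.37, 4.85, 2.75 and 3.19 in sham PparaΔHep livers, without overlap. After PHx they were 10.53, 8.78, 6.11 and 9.69 in fl/fl and 2.69, 2.27, 5.36 and 6.97 in PparaΔHep livers. The difference between the PHx changes was -0.26 ± 1.57, with an interval of -3.60 to 3.09 that leaves nearly any response possible. Vnn1, a pantetheinase and target, was likewise lower in PparaΔHep livers after both operations without overlap, with a difference of 0.52 ± 0.67. Ppara itself had levels of 6.45, 7.02, 6.99 and 6.77 in sham fl/fl, 6.97, 6.08, 5.68 and 7.24 in PHx fl/fl, 6.29, 6.43, 6.43 and 6.05 in sham PparaΔHep and 6.26, 5.02, 5.28 and 4.70 in PHx PparaΔHep livers. It fell by 0.98 ± 0.33 in PparaΔHep livers, and the difference of -0.67 ± 0.47 did not pass (adjusted p = 0.63). The probe set may lie outside the deleted part, so it checks no label.

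**Figure D3:**
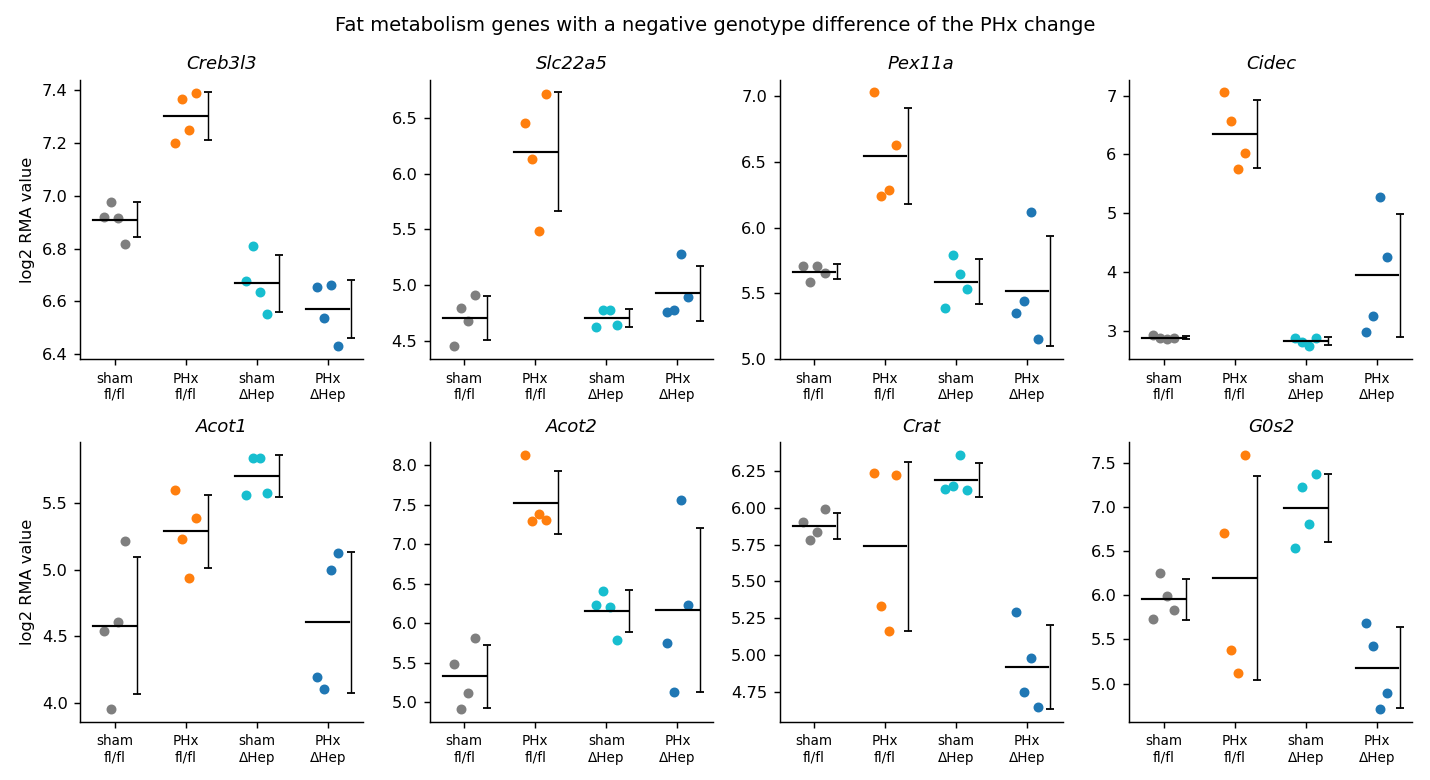
Points are the 4 arrays of each group (log2 RMA value, one panel per gene with its own axis), black lines the means and bars the SD. Creb3l3, Slc22a5, Pex11a and Cidec stand highest in PHx fl/fl livers, while Acot1, Crat and G0s2 stand highest on average in sham PparaΔHep livers and lowest or near lowest after PHx in that genotype; Acot2 is highest in PHx fl/fl livers.

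Of 21 measured lipid droplet genes, 6 rose and 2 fell in fl/fl livers, and 3 rose and 7 fell in PparaΔHep livers. The brighter genes, to which 17 of the 21 belong, rose in 6.89% and 6.24% and fell in 36.1% and 39.8%, so the falls are no more frequent than the background. Cidec, which fuses droplets into larger ones, stood at 2.92, 2.88, 2.87 and 2.88 in sham fl/fl and 2.89, 2.82, 2.74 and 2.88 in sham PparaΔHep livers. After PHx it stood at 7.05, 6.56, 5.75 and 6.02 in fl/fl and 2.99, 3.26, 5.27 and 4.25 in PparaΔHep livers. The PHx groups did not overlap, and PparaΔHep arrays 1 and 2 were little above sham. It rose by 3.46 ± 0.38 and by 1.11 ± 0.38, a difference of -2.35 ± 0.54 (95% interval -3.49 to -1.20; adjusted p = 0.315), and was lower in PparaΔHep livers after PHx by 2.40 (adjusted p = 0.0183).

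The droplet coat genes followed with smaller differences. Plin2 had 10.08, 9.87, 10.10 and 9.86 in PHx fl/fl against 9.16, 9.02, 9.79 and 9.45 in PHx PparaΔHep livers, having risen by 1.50 ± 0.14 and 0.94 ± 0.14, and its difference was -0.57 ± 0.19. Plin5, which ties droplets to mitochondria, rose by 0.87 ± 0.15 in fl/fl livers against 0.29 ± 0.15, a difference of -0.58 ± 0.22 with no overlap between genotypes after either operation. Plin4 rose in both, with a difference of -0.89 ± 0.50. G0s2, an inhibitor of the fat-splitting lipase ATGL, fell by 1.81 ± 0.42 in PparaΔHep livers from 6.54, 7.23, 6.81 and 7.38 to 5.69, 5.43, 4.71 and 4.89. In fl/fl livers it stood at 5.74, 6.26, 5.99 and 5.83 after sham and 6.71, 5.38, 5.12 and 7.59 after PHx, and the difference was -2.05 ± 0.60. Pnpla2, which encodes ATGL, rose by 1.07 ± 0.22 in fl/fl livers, with a difference of -0.66 ± 0.31, and Mgll, the last lipase of the chain, fell by 0.69 ± 0.21 in PparaΔHep livers, with a difference of -0.74 ± 0.30. The list's 2 positive members at unadjusted p below 0.05, Plin1 and Pnpla3, were dim (Pnpla3 mean 2.68, difference 0.27 ± 0.10).

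Among regulators and secreted products, Creb3l3 had the tightest values. This liver transcription factor, CREBH, works with PPARα in fasting. Its levels were 6.92, 6.98, 6.92 and 6.82 in sham fl/fl, 7.20, 7.37, 7.25 and 7.39 in PHx fl/fl, 6.68, 6.81, 6.64 and 6.55 in sham PparaΔHep and 6.66, 6.54, 6.66 and 6.43 in PHx PparaΔHep livers. It rose by 0.39 ± 0.07 in fl/fl livers with no overlap, against -0.10 ± 0.07, and the difference of -0.49 ± 0.10 (adjusted p = 0.286) had the 4th lowest t among the brighter protein-coding genes. Pdk4, a kinase that inhibits pyruvate dehydrogenase, rose by 2.99 ± 0.59 in fl/fl livers against 1.12 ± 0.59, but sham PparaΔHep levels of 5.45, 5.96, 6.21 and 5.54 were already above the 4.19, 4.82, 4.20 and 4.15 of sham fl/fl. Its difference was -1.87 ± 0.84. Txnip, a glucose-responsive inhibitor of thioredoxin, rose by 0.98 ± 0.25 in fl/fl livers, with a difference of -1.24 ± 0.35. The differences of the apolipoprotein gene Apoa4 and the desaturase gene Fads2 were -1.27 ± 0.47 and -1.39 ± 0.60, and that of the hormone gene Fgf21 was -0.30 ± 0.40 (adjusted p = 0.824). Angptl4, an inhibitor of lipoprotein lipase and a target as well, rose in both genotypes by 0.97 ± 0.25 and 0.76 ± 0.25, a difference of -0.21 ± 0.35 (95% interval -0.95 to 0.54).

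The 15 brighter protein-coding genes with the lowest t had differences from -0.43 to -2.35 and adjusted p from 0.286 to 0.325. Of them 9 rose in fl/fl livers and 8 fell in PparaΔHep livers (backgrounds 6.89% and 39.8% of the brighter genes). A low t favours rises in fl/fl and falls in PparaΔHep livers, so these counts largely follow from the ranking. The lowest t belonged to Rsad1, a radical S-adenosylmethionine protein, with 4.25, 4.21, 4.12 and 4.15 in sham fl/fl, 4.53, 4.48, 4.64 and 4.63 in PHx fl/fl, 4.18, 4.11, 4.19 and 4.26 in sham PparaΔHep and 4.16, 4.07, 4.21 and 4.13 in PHx PparaΔHep livers. Only PHx fl/fl stood apart, and the difference was -0.43 ± 0.07 (95% interval -0.58 to -0.28). Nceh1, a hydrolase of cholesterol esters, rose by 1.25 ± 0.16 in fl/fl livers to 5.43, 4.90, 4.65 and 5.55, against 3.90, 3.72, 3.74 and 3.70 in PHx PparaΔHep livers, a difference of -0.93 ± 0.22. Like Cidec, Nceh1 had a group mean above 4 only in PHx fl/fl livers and met the minimum level through that group. Pctp, which carries phosphatidylcholine, rose by 1.15 ± 0.24 in fl/fl livers, with a difference of -1.44 ± 0.34.

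Others of the 15 fell in PparaΔHep livers while the change in fl/fl livers did not pass. Cluh, which binds mRNAs of mitochondrial proteins, fell by 0.59 ± 0.06 there to 6.44, 6.37, 6.53 and 6.41, below all other arrays, and its difference was -0.44 ± 0.08. Elmod3 fell by 0.71 ± 0.16, with a difference of -1.0 ± 0.23, which passed without PHx fl/fl array 3 (-1.19, adjusted p = 0.0482). Camta2, a transcriptional coactivator, fell by 0.45 ± 0.07, and its difference of -0.45 ± 0.09 passed without PHx PparaΔHep array 1 (-0.53, adjusted p = 0.0465). Ppif, the cyclophilin of the mitochondrial pore, Grina and the elongase gene Elovl5 had differences of -0.68 ± 0.15, -0.50 ± 0.12 and -0.93 ± 0.22. Mef2d, a transcription factor, rose by 0.35 ± 0.07 in fl/fl livers to the level that sham PparaΔHep livers already had, and its difference was -0.51 ± 0.10. In the cholesterol and respiration lists the lowest members were Hsd17b7 (-0.94 ± 0.23) and the complex III gene Uqcrc1 (-0.36 ± 0.11), while the list medians were -0.05 and -0.09.

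The positive leaders were mostly genes of low level whose fall passed the test in fl/fl livers and not in PparaΔHep livers. Of the 15 with the highest t, 10 fell in fl/fl livers (background 36.1% of the brighter genes) and 0 in PparaΔHep livers (39.8%), where 5 rose (6.24%). A high t favours falls in fl/fl and rises in PparaΔHep livers, so these counts largely follow from the ranking of the 15. Outside Cyp3a44 and Serpina7 their mean levels ran from 4.04 to 5.0. Plekhf1, an endosomal protein gene, had 5.15, 5.08, 5.44 and 5.30 in sham fl/fl, 4.74, 4.72, 4.85 and 4.63 in PHx fl/fl, 4.89, 5.04, 5.02 and 4.94 in sham PparaΔHep and 5.21, 4.91, 4.91 and 5.16 in PHx PparaΔHep livers. The genotypes stood in opposite order after the 2 operations, without overlap in either, and the difference was 0.58 ± 0.12 (adjusted p = 0.286). The transcription factor genes Egr4 and Hmx1 had 0.60 ± 0.13 and 0.40 ± 0.09, the growth factor gene Nrtn 0.53 ± 0.13 and the Notch coactivator gene Maml1 0.32 ± 0.09. The remaining differences were 0.43 for Gm11564, 0.40 for Tspan11, 0.43 for 5730409E04Rik, 0.45 for Tmem200c, 0.37 for Ankrd39, 0.34 for Krtap5-2, 0.30 for Rtn4rl2 and 0.58 for Prlh.

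With no minimum level the highest t belonged to Tnfrsf8 (0.40 ± 0.08), Fchsd1 (0.31 ± 0.06), Galr2 (0.36 ± 0.07), Wnt1 (0.33 ± 0.07) and Cited4 (0.60 ± 0.12). Their mean levels of 3.22, 3.37, 2.65, 2.03 and 3.32 lay near or little above the array medians over all probe sets, whose group means ran from 2.03 to 2.18. Genes with a mean under 4 had a median difference of 0.05, so part of each such value is shared by the dim genes at large.

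Among bright genes, the Cyp3a family and the thyroxine carrier gene Serpina7 had positive differences. The Cyp3a genes encode drug and steroid hydroxylases, and the family was singled out after its values were seen. All 7 measured protein-coding members were positive under each of the 4 scalings. As deposited they ran from 0.18 to 1.12 with a median of 0.61, and 6 had an unadjusted p below 0.05, where 8.78% of all genes were positive. Under the other scalings the median lay between 0.51 and 0.65, and with array medians subtracted 5 had such a p. Cyp3a11 had 10.32, 10.45, 10.23 and 10.57 in sham fl/fl, 9.97, 10.20, 10.11 and 10.16 in PHx fl/fl, 10.01, 10.43, 10.12 and 10.26 in sham PparaΔHep and 10.26, 10.27, 10.45 and 10.60 in PHx PparaΔHep livers, a difference of 0.48 ± 0.14 (adjusted p = 0.327). It fell by 0.28 ± 0.10 in fl/fl livers and had 0.19 ± 0.10 in PparaΔHep livers. The members are related genes whose probes may overlap, so they do not count as 7 separate observations. Serpina7 rose by 2.61 ± 0.52 in PparaΔHep livers against 0.02 ± 0.52, a difference of 2.59 ± 0.74 (95% interval 1.02 to 4.16). The group that stood apart was sham PparaΔHep, at 2.41, 4.23, 4.21 and 3.99, while sham fl/fl livers stood at 6.66, 4.96, 5.62 and 5.35, those of PHx fl/fl at 5.50, 6.68, 6.17 and 4.30 and those of PHx PparaΔHep at 5.62, 6.40, 7.01 and 6.25.

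**Figure D4:**
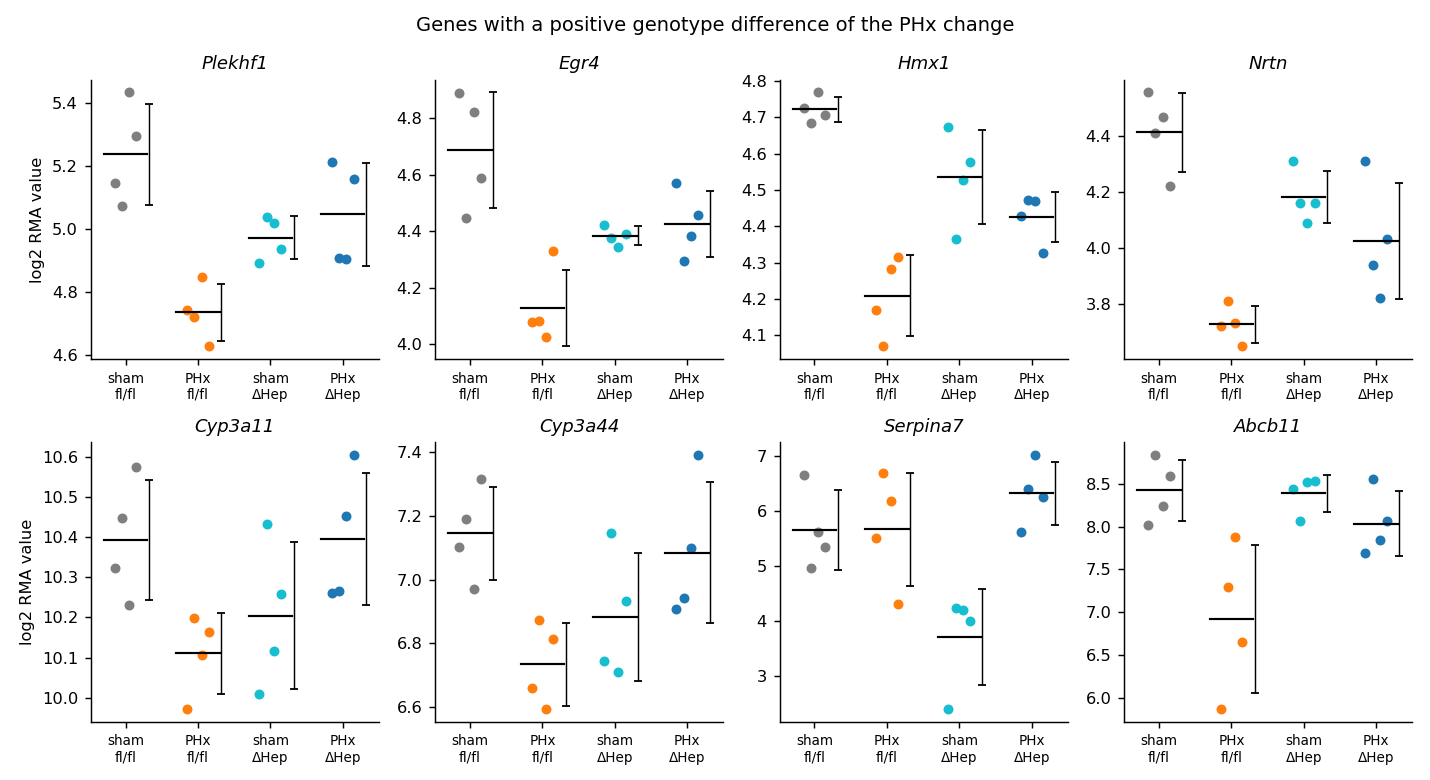
Points are the 4 arrays of each group (log2 RMA value, one panel per gene with its own axis), black lines the means and bars the SD. Plekhf1, Egr4, Hmx1, Nrtn and the Cyp3a genes stand lowest on average in PHx fl/fl livers, Serpina7 lowest in sham PparaΔHep livers and Abcb11 lowest in PHx fl/fl livers.

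The bile acid list had a median of -0.06, with 14 negative and 10 positive differences, and some members had large differences with wide errors. Abcb11, the bile salt export pump, fell by 1.50 ± 0.33 in fl/fl livers to 5.87, 7.30, 7.88 and 6.65, against 7.69, 8.56, 7.84 and 8.07 in PHx PparaΔHep livers, where the change of -0.35 ± 0.33 did not pass. The difference was 1.15 ± 0.47 (adjusted p = 0.39). Nr0b2, or SHP, a repressor of bile acid synthesis and chosen here after its values were seen, had 3.25, 3.13, 7.19 and 3.96 in PHx fl/fl against 5.23, 6.71, 7.40 and 6.85 in PHx PparaΔHep livers. Its difference was 2.44 ± 1.03 (adjusted p = 0.404), and PHx fl/fl array 3 lay apart from the other 3. Cyp7a1, which sets the pace of bile acid synthesis, fell by 5.29 ± 1.23 in PparaΔHep livers to 6.39, 2.54, 1.79 and 1.91, with 5.43, 5.50, 1.93 and 7.82 in PHx fl/fl livers. The difference of -3.39 ± 1.74 had an interval from -7.10 to 0.32.

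Known genes of the regeneration response had differences near 0, with intervals that bound them loosely. Tnfrsf12a, a receptor gene for TWEAK, rose by 2.65 ± 0.36 and 2.81 ± 0.36, a difference of 0.16 ± 0.51 (95% interval -0.93 to 1.26). Jun, an immediate early transcription factor gene, rose by 0.96 ± 0.27 and 0.98 ± 0.27, a difference of 0.02 ± 0.39 (-0.81 to 0.84). Derl3, of endoplasmic reticulum protein disposal, fell by 4.08 ± 0.44 and 3.59 ± 0.44, a difference of 0.49 ± 0.63 (-0.85 to 1.82). The male steroid dehydrogenase gene Hsd3b5 fell by 4.02 ± 0.37 and 3.68 ± 0.37, a difference of 0.34 ± 0.53 (-0.78 to 1.46). Fdps, of cholesterol synthesis, fell by 1.65 ± 0.21 and 1.54 ± 0.21, a difference of 0.11 ± 0.30 (-0.52 to 0.75). Each moved the same way in both genotypes, and each interval includes 0. The oestrogen sulfotransferase gene Sult1e1 rose in both, with a difference of 0.86 ± 1.30 (-1.91 to 3.62). The cell cycle inhibitor gene Cdkn1a had a difference of 0.03 ± 1.25, with PHx levels of 7.12, 8.59, 8.94 and 4.48 in fl/fl and 5.85, 6.33, 8.45 and 9.12 in PparaΔHep livers. The proliferation marker Mki67 was dim throughout (mean 1.84) and had a difference of -0.19 ± 0.18 (-0.57 to 0.19).

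In bulk tissue, fewer cells of a type and less RNA per cell cannot be told apart, so the markers of liver cell types were set beside these results. All 12 measured hepatocyte markers had a mean of at least 4, with 9 positive and 3 negative differences and a median of 0.02. Kupffer cell and macrophage markers had a negative difference in 11 of 12, a median of -0.20 and 0 at unadjusted p below 0.05. Of these markers 5 of 12 fell in fl/fl and 9 of 12 in PparaΔHep livers. Of the brighter genes, to which 10 of the 12 belong, 36.1% fell in fl/fl and 39.8% in PparaΔHep livers. The defining markers Clec4f and Adgre1 had differences of -0.30 ± 0.23 and -0.29 ± 0.27. The mean level of that list ran from 5.05 to 5.60 in sham fl/fl, 4.72 to 5.10 in PHx fl/fl, 5.26 to 5.72 in sham PparaΔHep and 4.72 to 5.14 in PHx PparaΔHep livers. Its part in the negative differences of fat genes was not tested. Endothelial and stellate cell markers had medians of -0.02 each, and those of T and NK cells, B cells, neutrophils and pancreas, almost all dim, had medians from 0.06 to 0.17. Cholangiocyte markers were positive in 5 of 5, with a median of 0.17 and 3 of 5 at unadjusted p below 0.05. Only 1 of the 5 had a mean of at least 4, and of all genes with a mean under 4, 10.9% were positive at that p. After cyclic loess, after quantile normalization and with array medians subtracted, 0 of the 5 had such a p. The cholangiocyte medians were then 0.09, 0.09 and 0.07. Monocyte, erythroid and adipocyte markers had medians of -0.05, 0.01 and 0.06. The part of these markers in the results was not tested.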

How the data were processed

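Total RNA of mouse liver was measured on Affymetrix arrays, 1 array per sample and 16 in all. The authors deposited log2 values. The submitters' processing notes name RMA, which removes background, makes arrays comparable and condenses each probe set to 1 value. Which software and build ran it was not given in the sources used here, nor was a version. The lowest value was 0.07 and the highest 12.11, and no 2 arrays were identical. The number of arrays limits the precision, and low values lie near background, where changes are understated.

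Of 72688 probe sets, 30604 have 1 gene symbol in the platform annotation, 2146 several and 39938 are unlisted there. Only those with 1 symbol were named, with 827 symbols updated through RefSeq. For 355 genes with several probe sets the brightest was used, which left 30142 genes.

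limma 3.58.1 in R 4.3.3 (lmFit and eBayes) estimated the 4 group means over all 16 arrays, with 12 residual degrees of freedom and files read by the package data.table, version 1.17.8. Two-sided p-values were adjusted by Benjamini-Hochberg over 30142 genes, with a threshold of 0.05, and an error after ± is the model's standard error unless SD is named. The model shares 1 spread per gene over the groups, so errors are too narrow for groups that vary more. It was tested on simulated data. Genes were named by this rule: the 15 highest and 15 lowest t of the genotype difference among protein-coding genes with a mean of at least 4, the 5 highest and 5 lowest at any level, any gene that passed, a fixed set of known genes, and the extremes of each of 23 pathway lists, beside 12 marker lists. Cyp3a genes, Nr0b2 and further list members were named after their values were seen. The question, the lists and the rule were chosen with earlier results of these data known. Alternatives were other scalings, gene filters, variance models, array weights, a term for runs of numbers in the sample titles, and leaving out each array.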

Additional observations from a re-analysis of the deposited data

Results flagged for a closer look

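In a group of 4 arrays an array was singled out when its gap to the nearest other array exceeded 0.829 of the group's range. By chance about 1 group in 20 is picked out this way, and 14 of 344 groups were. In PHx fl/fl livers these were array 1 for Acot2, at 8.13 against 7.29 to 7.38 on the others, and array 4 for Cluh, at 7.0 against 6.76 to 6.79. In sham fl/fl livers they were array 2 for Pdk4, at 4.82 against 4.15 to 4.20, and array 1 for Tnfrsf12a, at 5.26 against 4.51 to 4.57. In sham PparaΔHep livers array 2 stood apart for Fgf21 (2.91 against 2.31 to 2.39) and Plin4 (4.0 against 3.39 to 3.48), and array 3 for Crat (6.36 against 6.12 to 6.15). In the same group array 4 stood apart for Pctp (5.92 against 6.35 to 6.38) and array 1 for Serpina7 (2.41 against 3.99 to 4.23) and Sult1e1 (2.25 against 1.60 to 1.70). In PHx PparaΔHep livers array 1 stood apart for Cyp7a1 (6.39 against 1.79 to 2.54), Jun (4.56 against 5.42 to 5.49) and Derl3 (6.84 against 4.07 to 4.47), and array 4 for Pnpla3 (2.98 against 2.67 to 2.71).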

How the results depend on the processing

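No gene passed under any of the 10 alternatives that kept all arrays (smallest adjusted p from 0.14 to 0.432), and with 1 array left out 0 to 2 genes passed: Camta2, Elmod3, Slc22a5 and 4930578G10Rik, the last at -0.76 without PHx fl/fl array 4 (limma adjusted p = 0.0324). All 30 leaders kept their direction under every alternative that tested them, which largely follows from their ranking by t on these same arrays. Of the 86 named genes, some of them named after their values were seen, 79 kept theirs. The others were Derl3, Cyp4a14, Tnfrsf12a, Jun, Cdkn1a, Fdps and Mki67. With array medians subtracted Jun was -0.08 (-0.084) and Cdkn1a -0.07 (-0.068), and with a term for runs of title numbers Fdps was -0.15 (-0.151) and Mki67 0.009. Over single arrays left out, Jun ran from -0.192 to 0.239, Cdkn1a from -0.903 to 0.584, Tnfrsf12a from -0.171 to 0.502, Derl3 from -0.172 to 0.753, Fdps from -0.058 to 0.294 and Cyp4a14 from -1.145 to 0.429. Genes at unadjusted p below 0.05 numbered 2264 after quantile normalization, 626 when only genes with a mean of at least 4 were fitted and 7083 over all probe sets. Calls of the PHx change were 4015 in fl/fl and 4380 in PparaΔHep livers with that minimum, and 18600 in each over all probe sets, where other numbers of features were tested. They were 6574 in fl/fl livers with protein-coding genes only, and 3897 and 2963 with the title-number term. Most runs of title numbers hold sham or PHx arrays alone, so that term and the operation are largely confounded. The cause of the lower counts was not tested. No paired analysis was possible because the replicate numbers only follow the order of the samples. Signal over background limits the dim genes, and the wide spread after PHx limits Cyp7a1, Cyp4a14 and Cdkn1a.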
